A study of Mus musculus with 26 samples.

Results

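The 9 genes described here encode the transcription factors through which the circadian clock reaches its target genes: Dbp, Tef and Hlf, Nfil3, the REV-ERB receptors Nr1d1 and Nr1d2, the receptor Rora, and Bhlhe40 and Bhlhe41. They were chosen by name, by taking every probe set whose gene symbol in the platform annotation is exactly one of these, and this gave 23 of the 34945 probe sets that name 1 gene. All 23 passed the filter on dim probe sets, so that the 9 genes are 9 of the 14854 genes tested. Rora has 9 probe sets, Tef 3, Dbp, Hlf, Nr1d2 and Bhlhe41 2 each, and Nfil3, Nr1d1 and Bhlhe40 1 each. Where a gene has several, its values are those of the brightest unless another is named.

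RNA came from the tibialis anterior and extensor digitorum longus (TA/EDL), fast muscles of the shin, and was read for 26 mice on 1 Affymetrix array each. Of the mice labelled MKO, meaning a knockout of the coactivator gene Ppargc1a (PGC-1a) limited to skeletal muscle, 7 were on calorie restriction (CR) and 7 on the control diet; of the mice labelled FLOX, which carry the floxed alleles, 6 were on CR and 6 on the control diet. CR mice were given 80% of their free intake in the first week and 60% afterwards, control mice 90%, over 12 weeks in all. All 4 groups were singly housed littermates of mixed C57/BL6 and 129 background on AIN-93M food. The labels give neither the Cre line, the age and the sex of the mice, nor the time of day and the hours since food at which muscle was taken.

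The clock is a loop in which CLOCK and BMAL1 (Arntl) switch on genes through E-box motifs, among them those of their own repressors. DBP, TEF and HLF are activators that bind D-box motifs, and NFIL3 (E4BP4) is a repressor that binds the same motif. REV-ERB alpha (Nr1d1) and REV-ERB beta (Nr1d2) repress, and ROR alpha (Rora) activates, genes such as Arntl that carry a ROR element, which contains the half-site AGGTCA. BHLHE40 (DEC1) and BHLHE41 (DEC2) are repressors that compete at E-boxes. In mouse muscle most of these transcripts rise and fall over the day, and REV-ERB alpha and ROR alpha are also known there as regulators of mitochondrial and lipid genes.

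Promoters are shown for Rora, the gene that differed most between the genotypes, and for the genes in whose promoter window a script found one of these motifs. The windows run from 250 bases before to 50 bases after the annotated start and are from RefSeq, mouse build GRCm38.p6. Each sequence reads 5′ to 3′ on the strand of the gene, and capitals mark the motif. For Rora the bases before the start are printed, and for the others the stretch around the motif. Of the 9 genes 8 had a window in that table, Tef with 2 starts, which makes 9 windows, and Bhlhe40 was not in it.
Rora, chr9:68653536-68653785, plus strand: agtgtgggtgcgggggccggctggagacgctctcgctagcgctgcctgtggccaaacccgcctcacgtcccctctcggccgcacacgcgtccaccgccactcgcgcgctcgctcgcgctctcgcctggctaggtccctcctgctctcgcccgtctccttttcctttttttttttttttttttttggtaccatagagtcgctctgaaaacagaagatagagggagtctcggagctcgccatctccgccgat
Tef, upstream start, chr15:81802519-81802578, plus strand: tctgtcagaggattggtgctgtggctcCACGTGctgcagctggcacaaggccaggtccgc
Tef, downstream start, chr15:81811249-81811308, plus strand: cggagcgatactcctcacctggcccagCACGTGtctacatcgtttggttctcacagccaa
Bhlhe41, chr6:145865541-145865600, minus strand: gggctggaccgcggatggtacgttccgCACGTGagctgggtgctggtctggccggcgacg
Nr1d2, chr14:18239151-18239210, minus strand: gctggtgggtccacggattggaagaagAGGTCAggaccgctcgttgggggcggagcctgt
Nfil3, chr13:52981040-52981099, minus strand: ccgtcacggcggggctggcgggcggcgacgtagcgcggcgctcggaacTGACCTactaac
The E-box CACGTG was in 3 of the 9 windows, beginning 127 and 138 bases before the 2 starts of Tef and 153 bases before that of Bhlhe41. The half-site AGGTCA was in 2, beginning 77 bases before the start of Nr1d2 and, on the opposite strand and so written TGACCT, 12 bases before that of Nfil3. Over 32851 windows of all genes, searched on both strands, CACGTG was in 7.15%, AGGTCA in 16.3% and the D-box TTANGTAA in 2.32%, and no member window held the D-box. The Rora window held none of the 3. These are matches of letters and say nothing about binding.

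Array medians were 212 to 232 and the dimmest value on each array 56.6 to 62.8, in units of intensity, and arrays of a group correlated at 0.984 to 0.996. All 5 probe sets of Ppargc1a, the targeted gene, were brighter in mice with the MKO label (1.34- to 1.57-fold on CR, 1.53- to 1.76-fold on the control diet). The labels do not say whether those probe sets lie inside the deleted part, so they do not settle the genotype, and the mice are called by their label. The summed intensity of 9 muscle fibre markers was 249948 to 263409 over all 26 mice. In whole muscle, fewer cells of a type and less RNA per cell cannot be told apart.

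The comparisons ask how far CR changed the 9 genes in each genotype, how far the genotypes differed on each diet, and whether the effect of CR differed between them. Rora was higher in the mice labelled MKO on both diets and Bhlhe40 was higher in them on CR, and no other member passed the test in any comparison (limma, Benjamini-Hochberg adjusted p under 0.05 over 14854 genes). CR changed 0 of the 9 in the mice labelled MKO, where 15.1% of all genes passed (6.64% higher, 8.48% lower); Dbp and Hlf had an unadjusted p under 0.05, as 26.9% of all genes did. CR changed 0 of the 9 in FLOX mice, where 10.0% of all genes passed (4.66% higher, 5.37% lower); Nr1d1 and Bhlhe40 had an unadjusted p under 0.05, as 22.6% of all genes did. Between genotypes 2 of 9 passed on CR, where 17.3% of all genes did (8.23% higher in mice labelled MKO, 9.05% lower). On the control diet 1 of 9 passed, where 19.3% did (9.05% higher, 10.2% lower). The interaction, taken as the effect of CR in mice labelled MKO less its effect in FLOX mice, passed for 0 of the 9 and for 0% of all genes. At an unadjusted p under 0.05 it held 0 of the 9, against 4.85% of all genes. These counts lie near or below the shares of all genes and say nothing particular of the 9 as a set.

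The median log2 change of the 9 genes was small in each comparison. It was 0.061 for CR in mice labelled MKO, against 0.00095 over all genes, and -0.0076 for CR in FLOX mice, against 0.0012. It was 0.045 between genotypes on CR and -0.031 on the control diet, against -0.016 over all genes in each. For the interaction it was 0.15, against -0.0012, with 7 of the 9 differences above 0. These differences shift without CR FLOX mice 5 and 6, a choice made after seeing the data. Dbp then went from 0.43 to 0.12, Nr1d1 from 0.24 to 0.025 and Bhlhe40 from 0.28 to 0.072. Smaller falls were seen in Hlf (0.15 to 0.12), Tef (0.12 to 0.063) and Bhlhe41 (0.071 to 0.035). Nfil3 rose from -0.10 to 0.40, and Rora (0.18 to 0.20) and Nr1d2 (-0.050 to -0.038) rose slightly. The comparisons share groups, so their values are not independent of each other.

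**Figure D1:**
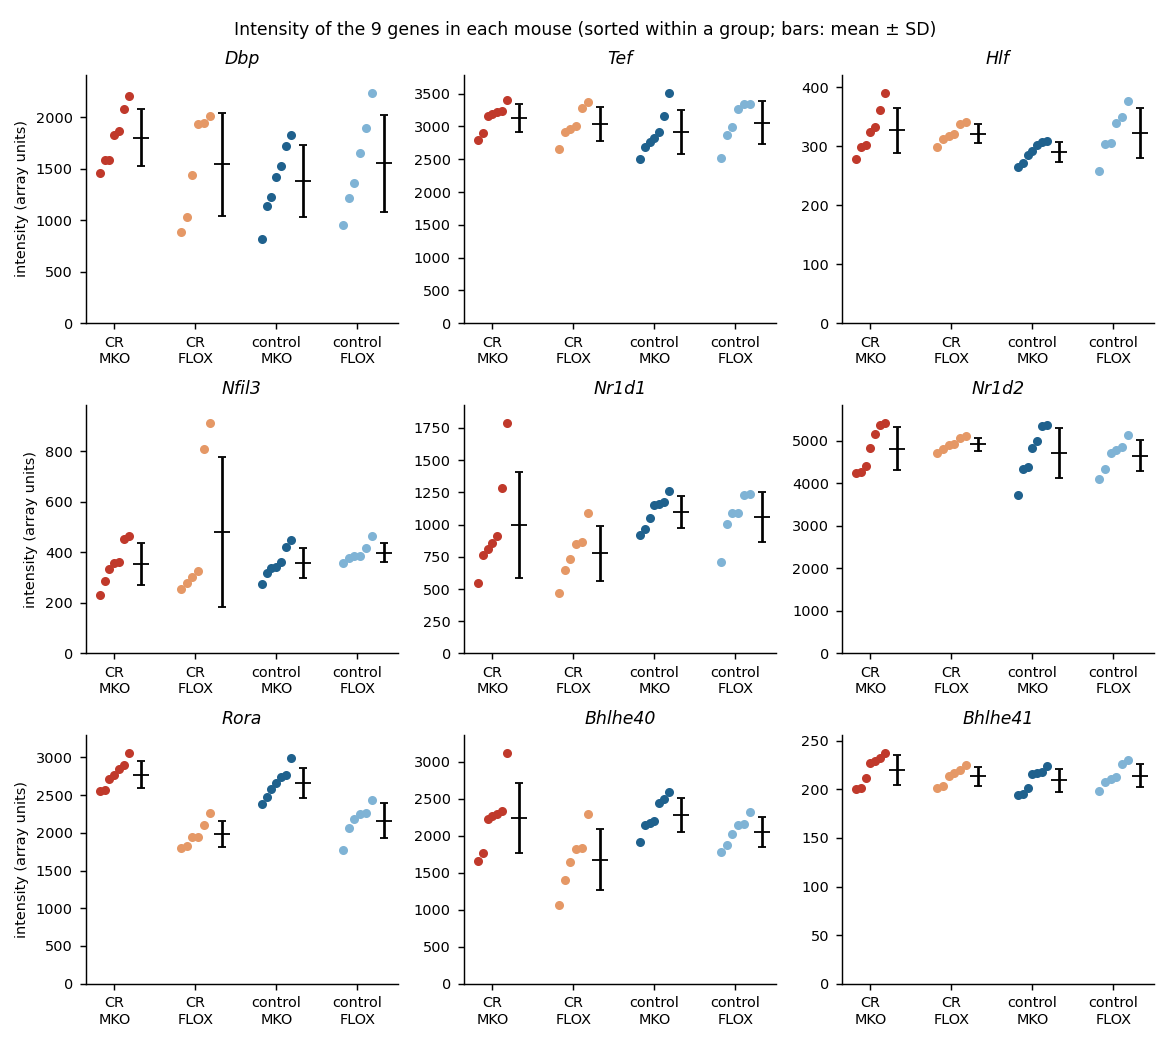
Intensity (array units, linear axis from 0) of each of the 9 genes in every mouse, 1 point per mouse, sorted by value within a group, with the mean and SD beside the points. In the Rora panel the 7 CR mice labelled MKO, at 2558 or more, lie above all 6 CR FLOX mice; in the Nfil3 panel 2 CR FLOX mice, at 807 and 911, lie far above the rest.

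**Figure D2:**
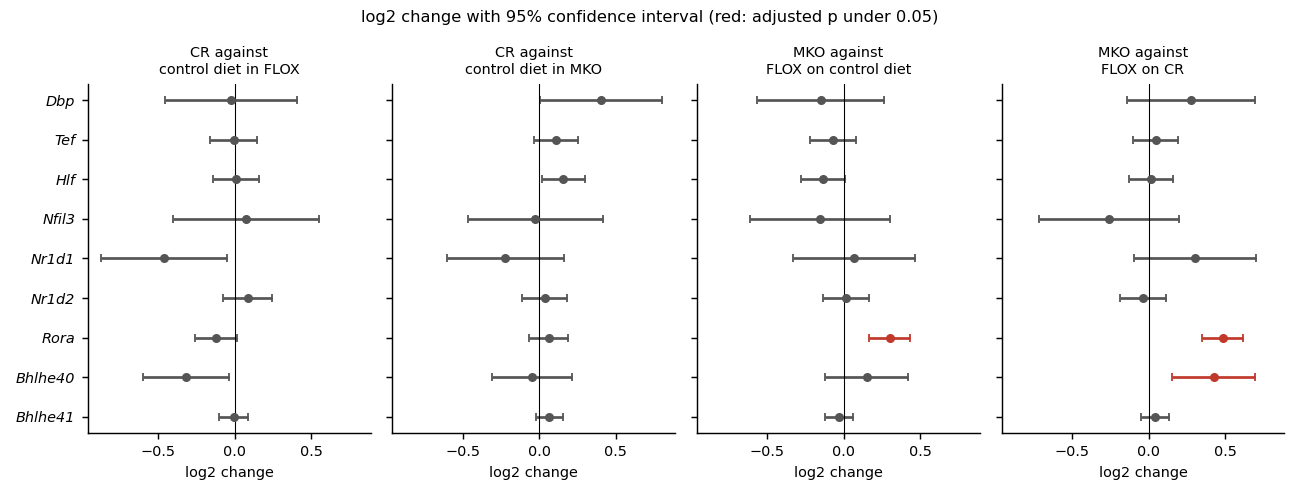
The log2 change of each gene in 4 comparisons, with its 95% confidence interval; points in red passed the test. Rora on both diets and Bhlhe40 on CR, each between genotypes, are the 3 red points.

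Rora encodes ROR alpha, the activating receptor. On CR its lowest, median and highest intensity was 2558, 2765 and 3055 in the 7 mice labelled MKO, against 1799, 1947 and 2260 in the 6 FLOX mice. On the control diet it was 2380, 2660 and 2988 in the 7 labelled MKO, against 1772, 2220 and 2437 in the 6 FLOX mice. Every CR mouse labelled MKO was above every CR FLOX mouse, a separation in that direction seen in 3.17% of all genes, and on the control diet 6 of the 7 labelled MKO were above every FLOX mouse. Rora averaged 2773 ± 179 in CR mice labelled MKO and 1982 ± 174 in CR FLOX mice (SD, n = 7 and 6), a log2 difference of 0.48 ± 0.065 (SE), or 1.40-fold, with an adjusted p of 3.83e-06. On the control diet the means were 2658 ± 202 in mice labelled MKO and 2163 ± 227 in FLOX mice (SD, n = 7 and 6), a log2 difference of 0.30 ± 0.065 (SE), or 1.23-fold, with an adjusted p of 0.0016.

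That gap in Rora was wider on CR than on the control diet by 0.18 ± 0.092 (SE) on the log2 scale, and its 95% interval of -0.0039 to 0.37 includes 0 (unadjusted p = 0.0546, limma adjusted p = 0.999). Within a genotype, CR moved Rora by 0.061 in mice labelled MKO (adjusted p = 0.583) and by -0.12 in FLOX mice (adjusted p = 0.292), neither past the test. The genotype difference passed with any 1 mouse left out, at 0.46 to 0.52 on CR and 0.24 to 0.33 on the control diet. With the 9 probe sets averaged it was 0.30 on CR (adjusted p = 7.02e-06) and 0.21 on the control diet (adjusted p = 0.000582), where the 2 dimmest enter with equal weight.

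The 6 markers of slow fibres, all tested, had a median log2 difference of 0.43 between genotypes on each diet, against -0.016 over all genes. On CR, where 8.23% of all genes passed as higher, 1 of the 6 passed (Myl2, the slow myosin regulatory light chain, at 1.26, adjusted p = 0.0126). On the control diet 0 passed. Their summed intensity was 4095 to 17572 (median 4443) in CR mice labelled MKO, against 2650 to 5267 (median 3356) in CR FLOX mice. On the control diet it was 3162 to 9255 (median 5484) in mice labelled MKO, against 2724 to 7899 (median 3536) in FLOX mice. The ranges overlap on both diets, and the part of fibre type in the Rora difference was not tested.

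The 9 probe sets of Rora split by brightness. On CR each of the 7 brightest was higher in mice labelled MKO, and the size was 1.25- to 1.43-fold, with adjusted p-values of 4.35e-06 to 0.00584 over all probe sets. On the control diet the 7 were higher by 1.15- to 1.34-fold and 6 of them passed, the exception being 1436325_at (adjusted p = 0.0822). Of all probe sets, 6.29% passed as higher on CR and 6.55% on the control diet, and 6.22% passed as lower on CR. Probe set 1455165_at had 1075, 1179 and 1247 as lowest, median and highest in CR mice labelled MKO, against 728, 890 and 1066 in CR FLOX mice. Its control-diet values were 1080, 1183 and 1257 in mice labelled MKO, against 780, 883 and 940 in FLOX mice, so that the genotypes did not overlap on either diet. The same held for 1458129_at on both diets, and for 1424034_at, 1420583_a_at and 1424035_at on CR. Of all probe sets, 2.48% were separated in that direction on CR and 2.07% on the control diet.

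The 2 dimmest probe sets behaved otherwise. Both were dim where array medians were 212 to 232: over all mice 1458145_at had 176 to 216 and 1441085_at 191 to 256. Probe set 1458145_at was lower in the CR mice labelled MKO (176 to 204) than in CR FLOX mice (199 to 216), by -0.13 on the log2 scale (adjusted p = 0.0211), and did not pass on the control diet (0.026, adjusted p = 0.716). Probe set 1441085_at passed on neither diet (-0.068, adjusted p = 0.47 on CR, and -0.14, adjusted p = 0.0831 on the control diet). The files do not say which exons or transcripts each probe set reads.

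**Figure D3:**
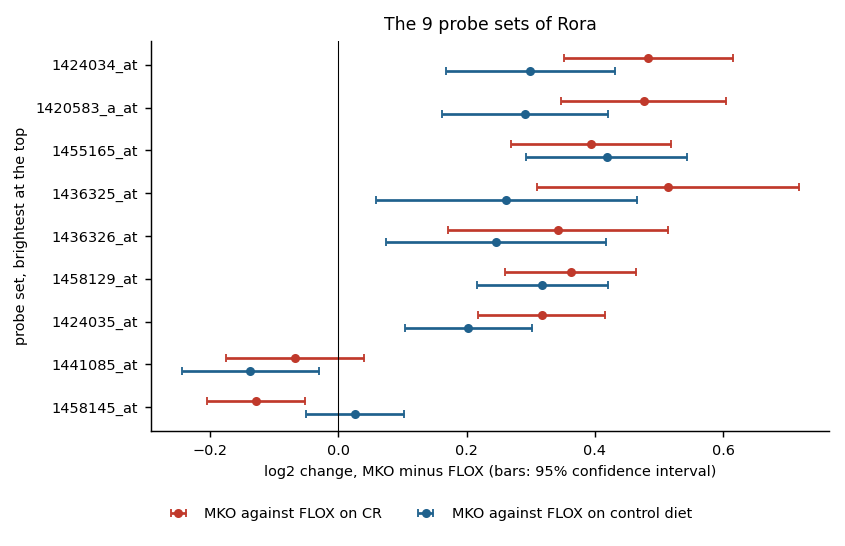
The log2 difference of mice labelled MKO minus FLOX mice for each of the 9 Rora probe sets, brightest at the top, with 95% confidence intervals, on CR (red) and on the control diet (blue). The 7 brightest lie between 0.20 and 0.51, and the 2 dimmest lie near or below 0.

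Bhlhe40 encodes DEC1, an E-box repressor. On CR its lowest, median and highest intensity was 1660, 2270 and 3116 in mice labelled MKO, against 1071, 1729 and 2297 in FLOX mice. Its control-diet values were 1919, 2202 and 2591 in mice labelled MKO, against 1781, 2085 and 2327 in FLOX mice. The genotypes overlapped on both diets, with 2 of the 7 CR mice labelled MKO above every CR FLOX mouse. On CR Bhlhe40 averaged 2240 ± 472 in mice labelled MKO and 1678 ± 417 in FLOX mice (SD, n = 7 and 6), a log2 difference of 0.43 ± 0.13 (SE), or 1.34-fold, with an adjusted p of 0.0253. This call rests on single mice: the difference was 0.38 without CR FLOX mouse 5 (adjusted p = 0.0602), 0.31 without CR FLOX mouse 6 (adjusted p = 0.0829) and 0.34 without the fifth CR mouse labelled MKO (adjusted p = 0.0651). With CR FLOX mice 5 and 6 both left out, an alternative added after seeing the data, it was 0.22 (adjusted p = 0.223).

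Its genotype difference on the control diet was 0.15 (adjusted p = 0.468). CR moved it by -0.046 in mice labelled MKO (adjusted p = 0.868) and by -0.32 ± 0.14 (SE) in FLOX mice (adjusted p = 0.151), a value that passed without CR FLOX mouse 3 (-0.42, adjusted p = 0.0434) and was -0.12 without CR FLOX mice 5 and 6 (adjusted p = 0.67). Bhlhe41, which encodes the related repressor DEC2, had 195 to 237 in all 26 mice, and its 4 diet and genotype changes lay between -0.031 and 0.066 on the log2 scale, none passing.

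Nr1d1 encodes REV-ERB alpha. In mice labelled MKO its lowest, median and highest intensity was 550, 860 and 1787 on CR, against 916, 1152 and 1259 on the control diet. In FLOX mice it was 471, 791 and 1093 on CR, against 709, 1090 and 1236 on the control diet. The ranges of the diets overlapped in each genotype, and both the highest and the lowest of the 26 mice were on CR. In mice labelled MKO, 5 of the 7 on CR were below every control-diet mouse and 2 were above every one. In FLOX mice, 2 of the 6 on CR were below every control-diet mouse and 0 were above every one. The change under CR was -0.46 ± 0.20 (SE) in FLOX mice (adjusted p = 0.159) and -0.22 ± 0.19 (SE) in mice labelled MKO (adjusted p = 0.488). Between genotypes Nr1d1 differed by 0.31 on CR (adjusted p = 0.31) and by 0.065 on the control diet (adjusted p = 0.849). Without CR FLOX mice 5 and 6 the change under CR in FLOX mice was -0.25 (adjusted p = 0.569) and the genotype difference on CR 0.090 (adjusted p = 0.803).

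Nr1d2, which encodes REV-ERB beta, was bright and its groups overlapped throughout. It had 4253, 4827 and 5413 in CR mice labelled MKO, 4714, 4910 and 5106 in CR FLOX mice, 3724, 4824 and 5363 in control-diet mice labelled MKO and 4102, 4746 and 5131 in control-diet FLOX mice, as lowest, median and highest. Its log2 changes in the 2 diet and 2 genotype comparisons lay between -0.037 and 0.084, with 95% intervals that reached no further than -0.19 and 0.24. These bounds hold for the brighter of its 2 probe sets only. The other, 1416959_at, gave -0.11 between genotypes on the control diet, with a 95% interval of -0.22 to 0.0093 (limma adjusted p = 0.236 over all probe sets). It passed in no comparison.

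Dbp, the D-box activator whose transcript is among the most rhythmic in mammals, had 1455, 1825 and 2210 in CR mice labelled MKO, against 822, 1422 and 1824 in control-diet mice labelled MKO. In FLOX mice it had 891, 1684 and 2015 on CR, against 958, 1504 and 2236 on the control diet. The groups overlapped in both genotypes, and in FLOX the mice of each diet covered nearly the same range. Its log2 difference under CR was 0.40 ± 0.19 (SE) in mice labelled MKO (adjusted p = 0.18) and -0.024 ± 0.21 (SE) in FLOX mice (adjusted p = 0.966). Its other probe set gave 0.49 (adjusted p = 0.156 over all probe sets) in mice labelled MKO and 0.025 (adjusted p = 0.974) in FLOX mice. The difference between those diet effects was 0.43 ± 0.29 (SE), with a 95% interval of -0.16 to 1.02 (limma adjusted p = 0.999). Without CR FLOX mice 5 and 6 the change in FLOX mice was 0.28 (adjusted p = 0.49) and the difference between the diet effects 0.12.

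Tef and Hlf encode the other activators of the D-box. Hlf had 277, 324 and 390 in CR mice labelled MKO, 299, 319 and 341 in CR FLOX mice, 264, 292 and 309 in control-diet mice labelled MKO and 257, 322 and 377 in control-diet FLOX mice. All 4 groups overlapped. The log2 difference of Hlf under CR was 0.16 ± 0.068 (SE) in mice labelled MKO (adjusted p = 0.125) and 0.0063 in FLOX mice (adjusted p = 0.977). The genotype difference on the control diet was -0.14 (adjusted p = 0.19) and passed without control-diet FLOX mouse 1 (-0.19, adjusted p = 0.0388). Tef had medians of 3184 in CR mice labelled MKO, 2985 in CR FLOX mice, 2831 in control-diet mice labelled MKO and 3132 in control-diet FLOX mice, within 2503 to 3511 over all mice, and its changes lay between -0.071 and 0.11 with no call.

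Nfil3 encodes the repressor of the D-box. It had 232, 358 and 465 in CR mice labelled MKO, 255, 315 and 911 in CR FLOX mice, 276, 341 and 449 in control-diet mice labelled MKO and 357, 385 and 463 in control-diet FLOX mice. The ranges of the groups overlapped, and the spread of the CR FLOX group came from 2 mice, numbers 5 and 6, at 807 and 911. The other 4 CR FLOX mice were at 255 to 327, below every control-diet FLOX mouse, while mice 5 and 6 were above every one. The change under CR was 0.074 ± 0.23 (SE) in FLOX mice (adjusted p = 0.9). Without those 2 mice it was -0.43 (adjusted p = 0.0696), so the sign of the Nfil3 value in FLOX mice depends on them.

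CR FLOX mice 5 and 6 stood apart in several of the genes. They had the 2 highest values of Nfil3 and the 2 lowest of Bhlhe40 (1407 and 1071) among the 26 mice. Their Dbp was 1034 and 891, below the other 4 CR FLOX mice at 1436 to 2015, and their Nr1d1 was 651 and 471, below the other 4 at 732 to 1093. In Rora, at 2107 and 1952, they lay inside the range of the other 4, at 1799 to 2260. The fifth CR mouse labelled MKO had the highest Nr1d1 (1787) and Bhlhe40 (3116) of all. The labels do not give the hour at which each mouse was sampled, and its part in these values was not tested.

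The spread between mice of a group differed widely among the 9 genes. The SD of the log2 value within groups was 0.44 for Nfil3, 0.40 for Dbp, 0.38 for Nr1d1 and 0.26 for Bhlhe40, which places these 4 above 97.4% of all genes or higher, where the median gene had 0.094. It was 0.14 for Nr1d2, 0.14 for Tef, 0.13 for Hlf and 0.12 for Rora, and 0.078 for Bhlhe41. The standard errors follow: a difference of 0.40 in Dbp had one of 0.19 and did not pass, and one of 0.30 in Rora had 0.065 and did.

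Mice also differed from their group means in the same way for several genes. Over the 26 mice with group means removed, 12 of the 36 pairs of genes passed (permutation of mice within groups, two-sided, 100000 resamples, Benjamini-Hochberg adjusted over the 36), 10 with a positive and 2 with a negative Pearson r. All values of a mouse come from the same array, so what an array adds to all its genes is shared by every pair. By Spearman's rho 10 pairs passed. Without the 2 mice farthest from the median of the gene named first, 6 of the 12 still passed. With median centring of the arrays 3 of the 12 lost the call, and with quantile normalization 1 did.

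Those 6 pairs joined the D-box activators to each other, Dbp to Bhlhe41, and Nr1d1 to Bhlhe40 and Nr1d2. Tef and Hlf had r = 0.71 and rho = 0.66 (permutation p = 2e-05 for r and 0.00059 for rho, adjusted p = 0.00072 for r), and r was 0.64 without the 2 farthest mice. Dbp and Tef had r = 0.66 and rho = 0.59 (permutation p = 0.00113 and 0.0043, adjusted p = 0.00678 for r; 0.63 without the 2), and Dbp and Hlf r = 0.59 and rho = 0.57 (permutation p = 0.00063 and 0.00272, adjusted p = 0.00678; 0.63 without the 2). Dbp and Bhlhe41 had r = 0.60 and rho = 0.61 (permutation p = 0.00097 and 0.00056, adjusted p = 0.00678; 0.59 without the 2). Thus mice with more Dbp than their group had more Tef, Hlf and Bhlhe41. Bhlhe41 enters every pair through its brighter probe set alone. That probe set was dim, at 195 to 237 where array medians were 212 to 232. No correlation was computed for the other probe set.

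Nr1d1 and Bhlhe40 had the highest r of the 36 pairs, 0.76, with rho = 0.66 (permutation p = 0.00021 and 0.00107, adjusted p = 0.00378; 0.64 without the 2 farthest mice). Nr1d1 and Nr1d2, which encode the REV-ERB pair, went opposite ways, with r = -0.55 and rho = -0.68 (permutation p = 0.00076 and 0.00021, adjusted p = 0.00678; -0.50 without the 2). By group, Nr1d1 and Bhlhe40 had r = 0.91 in CR mice labelled MKO and 0.998 in CR FLOX mice. On the control diet their r was 0.33 in mice labelled MKO and -0.24 in FLOX mice. For Nr1d1 and Nr1d2, r was -0.79 in CR mice labelled MKO and 0.094 in CR FLOX mice. On the control diet it was -0.69 in mice labelled MKO and -0.83 in FLOX mice. Mice with more Nr1d1 than their group thus had more Bhlhe40 on CR, and less Nr1d2 except in CR FLOX mice.

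In the other 6 pairs the adjusted p was above 0.05 without the 2 farthest mice. Nr1d2 was positively correlated with Tef (r = 0.61, rho = 0.60, permutation p = 0.00176 and 0.0019, adjusted p = 0.00905), Hlf (r = 0.55, rho = 0.52, permutation p = 0.00621 and 0.0165, adjusted p = 0.0207) and Dbp (r = 0.50, rho = 0.42, permutation p = 0.00546 and 0.0253, adjusted p = 0.0207). Without the 2 farthest mice r was 0.49 for Tef, 0.41 for Hlf and 0.41 for Dbp. Bhlhe41 was positively correlated with Hlf (r = 0.57, rho = 0.59, permutation p = 0.00688 and 0.00618, adjusted p = 0.0207; 0.54 without the 2) and Tef (r = 0.54, rho = 0.51, permutation p = 0.0069 and 0.0111, adjusted p = 0.0207; 0.49 without the 2). Dbp and its opposite number at the D-box, Nfil3, had r = -0.59 and rho = -0.53 (permutation p = 0.00687 and 0.0122, adjusted p = 0.0207). That value rests on few mice: it was -0.42 without the 2 farthest (adjusted p = 0.195) and -0.24 without CR FLOX mice 5 and 6 (adjusted p = 0.356). Rora was in none of the 12 pairs.

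**Figure D4:**
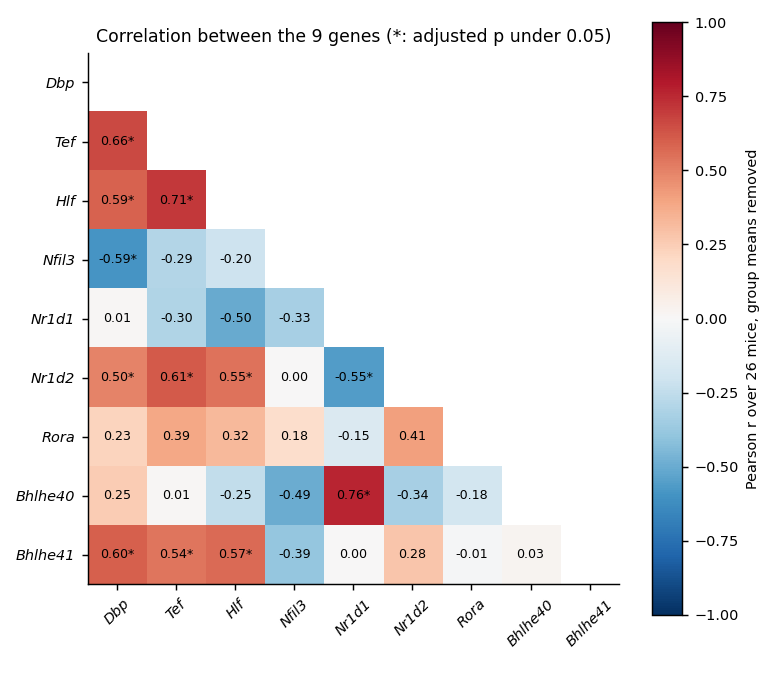
Pearson r for each pair of the 9 genes over 26 mice with group means removed; red is positive, blue negative, and an asterisk marks an adjusted p under 0.05 over the 36 pairs. Among Dbp, Tef, Hlf, Nr1d2 and Bhlhe41 every r is positive and 9 of the 10 pairs have an asterisk; Rora has none.

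**Figure D5:**
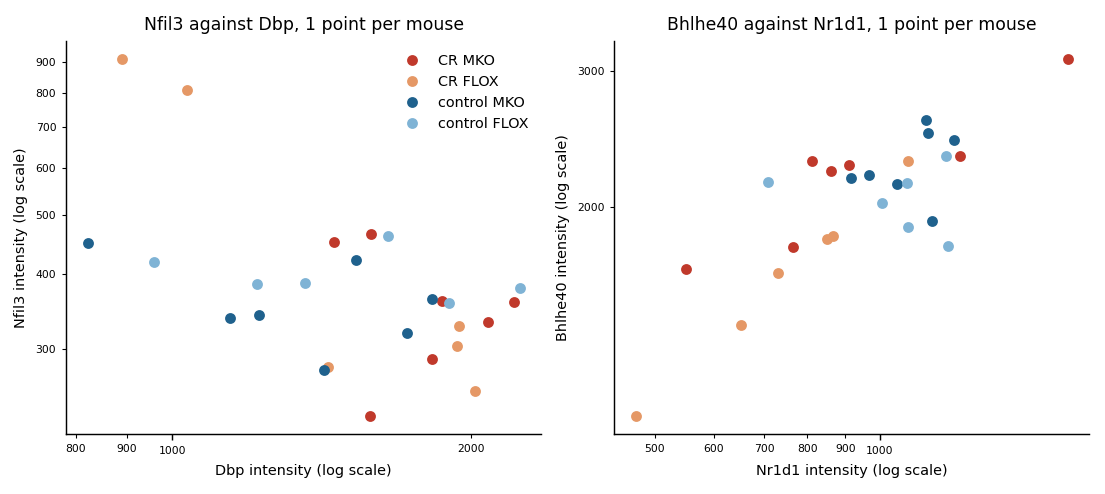
Nfil3 against Dbp and Bhlhe40 against Nr1d1, intensity on log axes, 1 point per mouse, coloured by group, group means not removed. In the left panel CR FLOX mice 5 and 6 sit at the top left, at 807 and 911 for Nfil3; in the right panel the highest point is the fifth CR mouse labelled MKO, at 1787 for Nr1d1 and 3116 for Bhlhe40.

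For each of the 9 genes, the 2 genes of highest r over the same 26 mice with group means removed are given as a description. They were taken from the 14854 genes, leaving out predicted genes and symbols without a proper name. Dbp was most like Ciart (0.87), a repressor of CLOCK and BMAL1, and Tmem86a (0.84). Nr1d1 was most like Klhl8 (0.81) and Bend3 (0.78), and Bhlhe40 most like Nr1d1 (0.76) and Myadml2 (0.76). Nfil3 was most like Zfp703 (0.86) and Ppp1r3c (0.80), a subunit that brings protein phosphatase 1 to glycogen. Tef was most like Otulinl (0.80) and Jdp2 (0.77), Hlf most like Socs2 (0.76), an inhibitor of growth hormone signalling, and Trhr (0.74), and Rora most like Pip4k2b (0.76) and Zcchc24 (0.76). Nr1d2 was most like Ccnt2 (0.84) and the splicing kinase Clk1 (0.84), and Bhlhe41 most like Klk6 (0.88) and Itga5 (0.88).

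For this list, those below and the cell markers, the shares of all genes that passed are these. Under CR 6.64% rose and 8.48% fell in mice labelled MKO, and 4.66% rose and 5.37% fell in FLOX mice. Between genotypes 8.23% were higher and 9.05% lower on CR, and 9.05% higher and 10.2% lower on the control diet. Medians over all genes lay between -0.016 and 0.0012 in the 5 comparisons. The other genes of the clock were read from a list of 16, of which 13 were tested. Under CR 3 of the 13 rose in FLOX and 0 fell: Per2 (log2 0.23, adjusted p = 0.00548), Cry1 (0.23, adjusted p = 0.0172) and Cry2 (0.21, adjusted p = 0.0245), which encode repressors of CLOCK and BMAL1. In mice labelled MKO 3 rose under CR and 2 fell, with Cry2 at 0.32 (adjusted p = 0.000208), Per2 at 0.21 (adjusted p = 0.00414), Timeless at -0.21 (adjusted p = 0.0107) and Arntl, a known target of the REV-ERB and ROR receptors, at -0.66 (adjusted p = 0.0185). Arntl had 259, 325 and 619 as lowest, median and highest in CR mice labelled MKO, against 385, 594 and 773 in control-diet mice labelled MKO, so that the diets overlapped.

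Between genotypes on the control diet 1 of the 13 was higher in mice labelled MKO, Clock (0.27, adjusted p = 0.00588), and 1 lower, Csnk1d (-0.18, adjusted p = 0.016), a kinase of the PER proteins. On CR 3 were higher and 1 lower: Clock at 0.37 (adjusted p = 0.000379), Cry2 at 0.22 (adjusted p = 0.0067), Ciart at 0.49 (adjusted p = 0.0441) and Timeless at -0.22 (adjusted p = 0.00751). Clock had 741, 825 and 913 in CR mice labelled MKO, against 530, 647 and 727 in CR FLOX mice, and these groups did not overlap. The list's medians lay between -0.026 and 0.035 over the 5 comparisons.

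A list of 21 genes tied to REV-ERB alpha or ROR alpha in muscle by earlier work had 19 tested. Under CR 1 rose and 3 fell in mice labelled MKO, and 0 rose and 2 fell in FLOX mice. Ulk1, the kinase that starts autophagy, fell by 0.59 on the log2 scale in mice labelled MKO (adjusted p = 1.23e-06) and by 0.41 in FLOX mice (adjusted p = 0.00047). Stk11, the AMPK kinase LKB1, fell by 0.12 in mice labelled MKO (adjusted p = 0.0347) and by 0.18 in FLOX mice (adjusted p = 0.00507). In mice labelled MKO, Cav3, the muscle caveolin, also passed under CR at 0.21 (adjusted p = 0.0227) and Ucp3, a mitochondrial carrier, at -0.80 (adjusted p = 0.0356).

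Between genotypes 3 of the 19 were higher and 2 lower on CR, and 2 higher and 1 lower on the control diet. Apart from Ppargc1a itself, Srebf1, the activator of fatty acid synthesis, was higher by 0.65 on CR (adjusted p = 0.000803) and by 0.39 on the control diet (adjusted p = 0.0346). Fabp3, the fatty acid binding protein of muscle, was lower, at -0.37 on CR (adjusted p = 0.0167) and -0.55 on the control diet (adjusted p = 0.000545), and Ucp3 was lower on CR, at -0.85 (adjusted p = 0.0281). Medians of the list lay between -0.0019 and 0.046.

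A list of 19 genes known to be rhythmic in mouse muscle or other tissues had 18 tested. Under CR 5 of the 18 rose and 3 fell in mice labelled MKO, where 6.64% of all genes rose and 8.48% fell. In FLOX mice 5 rose and 0 fell, where 4.66% of all genes rose and 5.37% fell. The genes that rose in each genotype included these 3: Pdp1, a pyruvate dehydrogenase phosphatase, by 0.46 in mice labelled MKO and 0.49 in FLOX mice; Pnpla2, the triglyceride lipase, by 0.60 in mice labelled MKO and 0.44 in FLOX mice; and Dgat2, which makes triglyceride, by 0.62 in mice labelled MKO and 0.55 in FLOX mice (adjusted p-values of 2.9e-05 to 0.00451). Between genotypes 0 were higher and 3 lower on the control diet, and 0 higher and 4 lower on CR. These were Pnpla2 (-0.45 on CR, -0.60 on the control diet), Dgat2 (-0.55 on CR, -0.62 on the control diet), Alas1, the first enzyme of haem synthesis (-0.79 on CR, -0.51 on the control diet), and, on CR, Pdk4, a pyruvate dehydrogenase kinase (-1.16, adjusted p = 0.0323). Medians of the list were 0.058 for CR in mice labelled MKO and 0.065 in FLOX mice, and between genotypes -0.057 on CR and -0.056 on the control diet.

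A list of 15 genes known to respond to glucocorticoids or fasting had all 15 tested, since feeding state and corticosterone move with the clock. Under CR 3 rose and 2 fell in mice labelled MKO, and 2 rose and 0 fell in FLOX mice. Fkbp5, a glucocorticoid target, rose by 0.90 in mice labelled MKO (adjusted p = 7.94e-05) and by 0.61 in FLOX mice (adjusted p = 0.0104), and Mt1, a metallothionein, by 1.09 in mice labelled MKO (adjusted p = 0.00029) and 0.75 in FLOX mice (adjusted p = 0.0206). The ubiquitin ligases of muscle wasting Fbxo32 (-1.19, adjusted p = 0.00157) and Trim63 (-0.51, adjusted p = 0.00638) fell under CR in mice labelled MKO. Between genotypes 0 of the 15 passed on either diet, and medians of the list lay between 0.0079 and 0.13 over the 5 comparisons. For the interaction no gene of any of these 4 lists passed.

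Markers of other cells moved with the diet. Of 8 fibroblast and tendon markers 6 fell under CR in each genotype, and their summed intensity was 8069 to 13082 in CR mice labelled MKO, against 15047 to 20260 in control-diet mice labelled MKO. It was 9223 to 12766 in CR FLOX mice, against 14599 to 21550 in control-diet FLOX mice. Of 6 endothelial markers 5 fell under CR in mice labelled MKO and 2 in FLOX mice, and of 6 macrophage and leukocyte markers 2 fell in mice labelled MKO and 3 in FLOX mice. Between genotypes these lists had 0 to 2 calls a diet, and the adipocyte and the nerve and Schwann markers, with 3 tested in each, had none in any comparison. Of the 9 muscle fibre markers, Mb was lower in mice labelled MKO on both diets (-0.20 on CR, -0.14 on the control diet) and Myh2 rose under CR in them (0.41). The part of these markers in the diet values of the 9 genes was not tested.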

How the data were processed

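Each of the 26 mice has 1 array of a 1-colour Affymetrix platform with 45101 probe sets. The values are the authors' deposited intensity, linear, 1 for each probe set on each array; the background correction, summary and normalization behind it are not given in the sources used here. Per the labels, total RNA was extracted with Trizol. From these values log2(intensity + 16) was taken, which understates changes of dim genes, with no further normalization. Of the probe sets, 64 were controls, 34945 named 1 gene, 932 several and 9160 none; only those naming 1 gene were used. Symbols of 34741 were updated through gene identifiers and 204 kept. Probe sets with a mean under the 30th percentile (log2 7.47) were left out, and the brightest of each gene was taken, which gave 14854 genes.

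Tests were made with limma 3.58.1 in R 4.3.3 (lmFit, eBayes), fitting a mean for each group to all 26 arrays and Benjamini-Hochberg adjustment over all genes, or over all 34945 probe sets where probe sets are tested singly. The code was tested on simulated data. The p-values measure the spread between mice, and the number of arrays limits the precision; no scan dates or detection calls were used, so no batch could be tested. Correlations between genes used permutation tests in Python 3.11.15.

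The text names the 9 genes, Ppargc1a, up to 4 called genes of smallest p per list and comparison, and the 2 genes most like each of the 9. Other named values are those of cell type markers. The members and lists were chosen with earlier results of these data known. Alternatives changed the pseudocount (1, 64), the filter (none, 50th percentile), the normalization (quantile, median centring), the probe sets, the variance model, array weights, the arrays fitted, a block for the number in the array title, and each mouse left out.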

Additional observations from a re-analysis of the deposited data

Results flagged for a closer look

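Within each group of 6 or 7 mice, the highest and the lowest value of each of the 9 genes were set against the rest. In 1 of the 36 groups checked a mouse stood apart: Nr1d1 in control-diet FLOX mouse 6 was 709, against 1007 in the nearest mouse of its group, a gap of 0.632 of the group's whole range, where the limit for 6 mice is 0.625. Chance gives about 1 such group in 20, so 1 in 36 is no pattern. CR FLOX mice 5 and 6 are not singled out by this check, since each has the other near it. No effect of diet met the rules for a difference between genotypes in any of the 9 genes.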

How the results depend on the processing

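The limits are these. Rora passed between genotypes under every alternative run, at 0.30 to 0.50 on CR and 0.21 to 0.32 on the control diet in those other than leaving out 1 mouse, and with each mouse left out in turn at 0.46 to 0.52 on CR and 0.24 to 0.33 on the control diet. Bhlhe40 on CR lost its call with array weights (0.35, adjusted p = 0.0577), with only the compared groups fitted (0.43, adjusted p = 0.0782) and without CR FLOX mice 5 and 6 (0.22), so that under each of these 1 of the 9 genes passed there, and the cause was not tested. The labels do not say that the numbers in the array titles pair the mice. Across groups, 37 pairs of arrays with a shared number had correlations of -0.36 to 0.34 (median 0.083). The 216 pairs with different numbers had -0.43 to 0.50 (median -0.012), and 2 mice correlated best with their own number. The ranges overlap and do not settle whether the numbers pair mice. With the replicate block no call changed, and Rora was at 0.48 on CR and 0.29 on the control diet.

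Of 571 log2 changes of single genes under alternatives other than leaving out 1 mouse, 550 kept their direction and call, 3 lost the call and 18 changed sign, none of them called. With quantile normalization these were Tef for CR in FLOX (0.017) and Nr1d2 between genotypes on the control diet (-0.047). With probe sets averaged they were Dbp (0.00053) and Bhlhe41 (0.072) for CR in FLOX, Nr1d2 (-0.047) and Bhlhe41 (0.0068) between genotypes on the control diet, and Bhlhe41 between genotypes on CR (-0.016) and in the interaction (-0.023). Array weights turned Dbp for CR in FLOX (0.0081). Leaving out CR FLOX mice 5 and 6, chosen after seeing the data, turned Dbp (0.28), Tef (0.046), Nfil3 (-0.43) and Bhlhe41 (0.031) for CR in FLOX, Dbp (-0.027), Tef (-0.0080), Hlf (-0.018) and Nfil3 (0.25) between genotypes on CR, and Nfil3 in the interaction (0.40).

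With each mouse left out in turn, 0 to 1 of the 9 genes passed for CR in FLOX, 1 to 2 between genotypes on CR and 1 to 2 on the control diet, and 0 otherwise. The changes with a sign that turned were, for CR in FLOX, Dbp (-0.15 to 0.12), Tef (-0.062 to 0.030), Hlf (-0.053 to 0.052), Nfil3 (-0.14 to 0.21) and Bhlhe41 (-0.026 to 0.014). For CR in mice labelled MKO they were Nfil3 (-0.095 to 0.065), Nr1d2 (-0.020 to 0.067) and Bhlhe40 (-0.13 to 0.021). Between genotypes they were Hlf on CR (-0.026 to 0.052), and Nr1d1 (-0.045 to 0.11) and Nr1d2 (-0.023 to 0.067) on the control diet, and in the interaction Nfil3 (-0.24 to 0.12). Of the 12 correlated pairs, 6 passed without the 2 farthest mice and 9 without CR FLOX mice 5 and 6. Without CR FLOX mice 5 and 6, Hlf with Bhlhe41 and Tef with Bhlhe41 lost the call beside Dbp with Nfil3. Of the 12, 1 lost the call with quantile normalization and 3 with median centring.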
